A study of Homo sapiens with 4 samples.

Results

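The MYC locus of chromosome 8, band 8q24, was examined for binding of MTA1, which belongs to the NuRD complex of nucleosome remodellers and histone deacetylases, in HCT116 cells. HCT116 is an epithelial line established from a human colorectal carcinoma. Members were chosen by name and position, with earlier results of these data known: MYC, its neighbours PVT1, CCAT1, CASC8, CASC11 and POU5F1B, 6 genes of 59679 annotated, and the span from 127.0 to 128.5 Mb of chromosome 8 (GRCh38). Fixed, sonicated chromatin gave 2 libraries immunoprecipitated with an MTA1 antibody and 2 input libraries made without an antibody, all from untreated cells of this line as far as the labels say. The authors' peak calls formed 2 lists, each of 1 MTA1 library over the control with the same number. The span held 13 of 32042 peaks in list 1 and 17 of 31079 in list 2, counted by peak midpoint. Whether the replicates were separate cultures is not stated in the labels. No read counts come with the peaks, and the depth behind each one is unknown. Peak lists hold no expression values, so the identity of the cells could not be checked against marker genes.

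MYC encodes a transcription factor of the basic helix-loop-helix leucine zipper class that pairs with MAX and binds E-box sequences at genes of growth, ribosome production and cell division. In colorectal cells it is a target of Wnt signalling through β-catenin and TCF factors. The gene lies in a large stretch with few protein-coding genes, which contains enhancers active in colon cancer and several long non-coding RNAs (lncRNAs). Variants in the part around CASC8 and POU5F1B are associated with the risk of colorectal cancer. NuRD removes histone acetyl groups and moves nucleosomes, and MTA1 has been described as a gene that MYC activates.

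MYC itself carried peaks in 1 replicate only. In list 1, 2 peaks lay inside the gene, which spans 127735434 to 127742951 and is transcribed towards higher coordinates. The first covered 127736951 to 127737733 with a score of 64.63, and the second covered 127737900 to 127739139 with a score of 94.05. The score is the peak caller's own value for each peak, in which higher is stronger; its scale is not stated, and no peak of either list was below 50. The second MYC peak was the best-scoring list 1 peak of the span, at rank 4903 of 32042, and the first stood at rank 15443. Their midpoints were 1908 and 3085 bp after the 5′ end of MYC, at 25.4% and 41.0% of the gene length, so neither counted as a peak at a gene end, taken here as a midpoint within 1000 bp of an annotated end. Only 166 bp separated the peaks, and from the first base to the last they formed a stretch of 2189 bp. Gaps that short were found between 658 of 31979 neighbouring list 1 pairs (2.06%). Among the 2498 protein-coding genes of 5 to 10 kb, 29.6% held at least 1 list 1 peak and 7.45% held at least 2, as MYC did.

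List 2 had no peak inside MYC. Its nearest peaks flanked the gene on both sides, at 127719745 to 127720487 (score 68.27, rank 9388), 15.3 kb before the 5′ end, and at 127758876 to 127759418 (score 53.82, rank 24531), 16.2 kb after the 3′ end. In list 2, 7.93% of protein-coding genes of 5 to 10 kb held a peak, so a gene of this size usually held none.

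**Figure D1:**
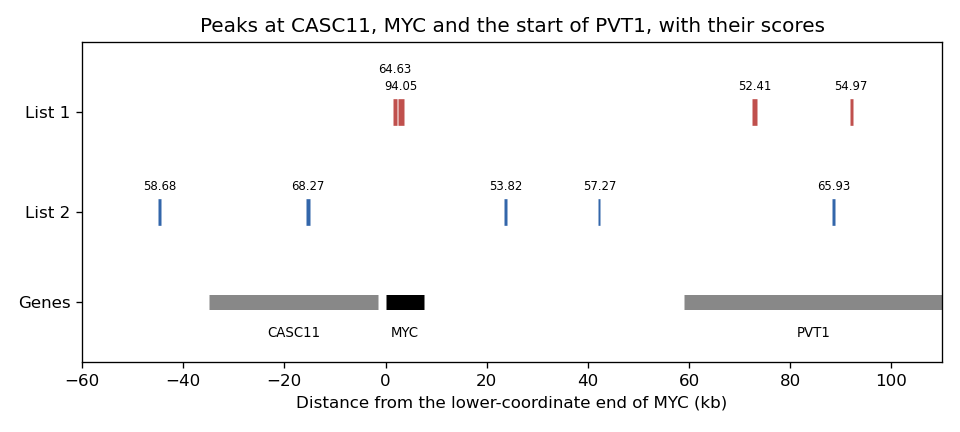
Peaks of both lists around MYC, drawn to scale as bars with their scores, against the distance from the lower-coordinate end of MYC in kb. Both list 1 peaks at MYC (64.63 and 94.05) fall inside the gene, and the nearest list 2 peaks lie 15.3 kb before and 16.2 kb after it.

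CASC11, a lncRNA whose MYC-side annotated end lies 1466 bp before MYC, held the list 2 peak with the score of 68.27 and no list 1 peak. That peak lay 13.9 kb from the nearest end of CASC11. Another list 2 peak, at 127690529 to 127691079 (score 58.68), lay 9.80 kb outside the far end of the gene. The list 1 peak nearest to CASC11 was the first MYC peak, 3375 bp from its MYC-side end.

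PVT1, a lncRNA gene of 306.7 kb that begins 51.6 kb beyond MYC and hosts several microRNAs, held most of the peaks assigned to members. List 1 had 7 peaks inside PVT1, with scores from 52.41 to 72.05 and a median of 55.01. List 2 had 4 there, with scores from 60.05 to 69.99 and a median of 66.6. None lay within 1000 bp of either end of the gene; the nearest was a list 2 peak at 128098541 to 128099511 (score 67.27), 2.23 kb inside the far end. The highest-scoring PVT1 peak was at 127917469 to 127918257 in list 1 (score 72.05, rank 11198) and at 127930627 to 127931323 in list 2 (score 69.99, rank 8542). They were 12.4 kb apart. The median gap from a list 1 peak of the span to the nearest list 2 peak was 16.5 kb. No PVT1 peak of list 1 overlapped one of list 2. The nearest approaches of the lists in the whole span were both in PVT1, with gaps of 2.88 kb (list 1 score 54.97, list 2 score 65.93) and 3.09 kb (61.26 and 67.27).

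Measured per length, PVT1 had 2.28 list 1 peaks and 1.30 list 2 peaks per 100 kb. The 1402 annotated genes of 200 to 500 kb had a median of 0.46 in list 1 and 0.78 in list 2, and 8.27% and 26.7% of them exceeded PVT1. Among the 56 genes of that length on 8q, 2 exceeded PVT1 in list 1 and 23 in list 2. PVT1 was above the median of its class in each list, and the difference between the lists was not tested. The microRNA genes MIR1204, MIR1205, MIR1206, MIR1207 and MIR1208, in or just beyond PVT1, had no peak of either list within 1000 bp of an end (0 of 5, against 9.67% of all microRNA genes in list 1 and 3.14% in list 2).

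The remaining members lie farther towards the centromere, and list 1 had no peak in or within 50 kb of any of them. CCAT1, a lncRNA first found in colon cancer, held no peak of either list, and its nearest peaks were 41.4 kb away in list 2 and 355.8 kb away in list 1. CASC8, a lncRNA of 192.5 kb, held 2 list 2 peaks, at 127373755 to 127374309 (score 63.25) and at 127417511 to 127418047 (score 67.05, rank 10243). The second of these was also the only peak of either list within 1000 bp of an end of a member, since its midpoint was 555 bp beyond the upper end of POU5F1B. POU5F1B is a retrogene copy of the pluripotency factor gene POU5F1 that sits inside CASC8. The peak shared no base with POU5F1B, which ends at 127417224. Reads from near-identical copies can be hard to place, and how such reads were handled is not given in the sources used here. Whether this bears on the peak was not tested. CASC8 had 1.04 list 2 peaks per 100 kb. The median was 0.85 for the 3458 genes of 100 to 300 kb and 1.36 for the 118 of them on 8q. Its absence of list 1 peaks was shared by 37.1% of the 3458 and by 29.7% of the 118.

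In all, 0 of 6 members had a list 1 peak at an end and 1 of 6 had a list 2 peak there. The background was 24.3% in list 1 and 6.28% in list 2 for protein-coding genes (MYC and POU5F1B), and 10.3% and 4.14% for lncRNA genes (the other 4 members). Beside such shares, counts of 0 and 1 among 6 genes give no result about the members as a group. Inside the genes, list 1 had peaks in 2 of 6 members (MYC and PVT1) and list 2 in 3 of 6 (PVT1, CASC8 and CASC11). The corresponding backgrounds were 43.5% and 35.2% for protein-coding genes, and 16.6% and 15.4% for lncRNA genes, which are mostly shorter than PVT1 and CASC8. PVT1 was the only member with a peak of each list inside it, which held for 5.26% of lncRNA genes and 21.2% of protein-coding genes of any length. Among genes of 200 to 500 kb, like PVT1, only 26.4% had no list 1 peak and 16.9% no list 2 peak. On 8q these shares were 7.14% and 5.36%, so peaks of both lists are usual in a gene this long. The count at gene ends depends on the window: with 3000 bp in place of 1000 bp, MYC entered in list 1 and PVT1 in list 2, and with 500 bp no member had a peak of either list at an end.

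**Figure D2:**
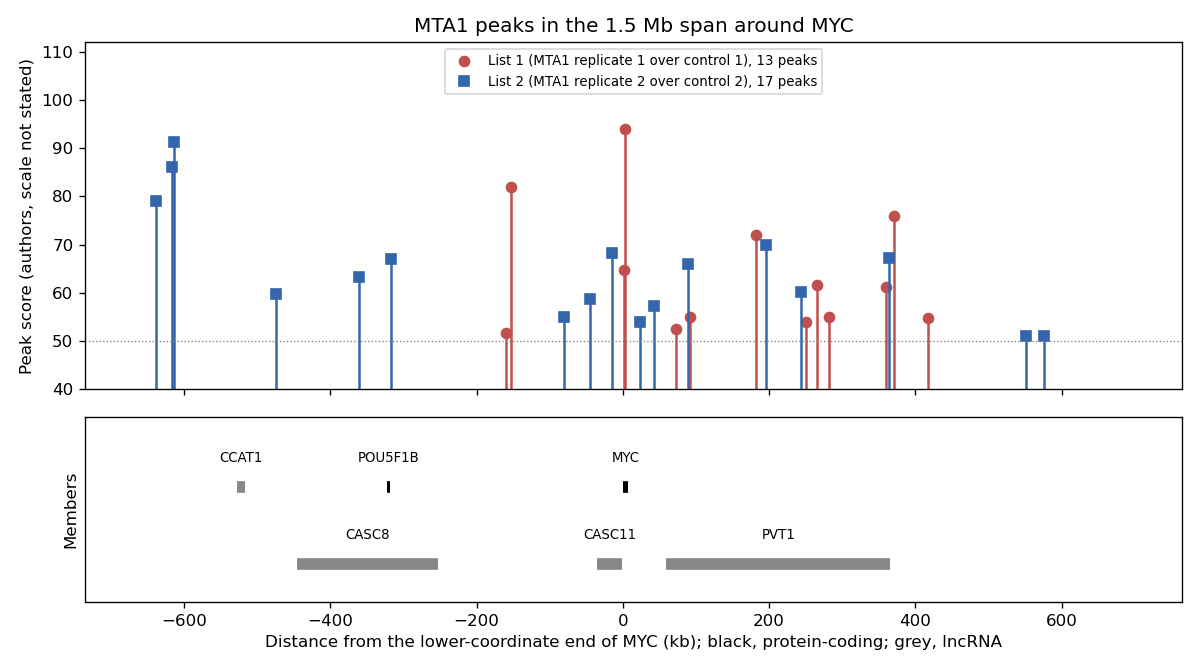
Score of each peak of the span (upper panel, circles for list 1 and squares for list 2, dotted line at the lowest score of 50) and the 6 members (lower panel), against the distance from the lower-coordinate end of MYC in kb. List 1 has no peak before 127.5 Mb, the part with CCAT1, CASC8 and POU5F1B, while list 2 has 6 there, 2 of them inside CASC8, and both lists have peaks within PVT1.

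The lists differed most in the part of the span before 127.5 Mb. This 500 kb held 0 list 1 peaks and 6 list 2 peaks. The next 500 kb, with CASC11, MYC and the first part of PVT1, held 8 of each list, and the last 500 kb held 5 and 3. The empty part of list 1 belonged to a peak-free stretch of 753.5 kb, from 126821315 to 127574782, which takes in CCAT1, CASC8 and POU5F1B. Of the 1263 intervals between list 1 peaks on 8q, whose median was 22.6 kb, 4 were longer. All 6 list 2 peaks in that stretch lay within the span. Among 196 bins of 500 kb on 8q, 5 had no list 1 peak and 2 had no list 2 peak. List 2 also had a long peak-free stretch, at the other side of the span, of 616.8 kb from 128310903 to 128927742. Of the 1624 intervals between list 2 peaks on 8q, whose median was 30.5 kb, 5 were longer. Both stretches were singled out after the peaks were seen. With no read counts, a region without binding and a region without enough reads cannot be told apart.

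The 3 best-scoring list 2 peaks of the span stood together in the list 1 peak-free stretch, outside every annotated gene. They covered 127096135 to 127096637 (score 79.04, rank 4670), 127118817 to 127119372 (score 86.15, rank 2931) and 127120694 to 127121308 (score 91.29, rank 2246 of 31079). The nearest gene was PRNCR1, a lncRNA linked to prostate cancer, whose end was 3791 bp from the first of them and 28406 bp from the last. The nearest list 1 peak was 274.8 kb or more from each. Next in list 2 were the PVT1 peak with a score of 69.99 and the CASC11 peak with a score of 68.27.

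In list 1, the best-scoring peak after that in MYC was at 127581935 to 127582463 (score 82.03, rank 7649), outside every annotated gene between CASC8 and CASC11, 72.4 kb from the nearest list 2 peak. The third was at 128106308 to 128106906 (score 76.04, rank 9642), 5.35 kb beyond the far end of PVT1, and was followed by the PVT1 peak of 72.05 and the first MYC peak of 64.63. Just outside the span, the next list 1 peak on the telomere side scored 52.86, inside LINC00824 and 30.3 kb past the boundary, and the next one on the centromere side scored 51.17, 178.9 kb before it.

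The best rank among the 30 peaks was 4903 of 32042 in list 1 and 2246 of 31079 in list 2. Scores in the span ran from 51.65 through a median of 61.26 to 94.05 in list 1, against a median of 66.33 and a highest value of 519.9 in the rest of 8q. In list 2 they ran from 50.94 through 63.25 to 91.29, against a median of 61.7 and a highest value of 214.8. Of the 13 list 1 peaks, 5 belonged to the better-scoring 50% of the list (38.5%, against 54.9% in the rest of 8q). Of the 17 list 2 peaks, 9 did (52.9%, against 53.0%). Median widths were 782 bp in list 1 and 543 bp in list 2, against 807 and 467 bp in the rest of 8q.

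**Figure D3:**
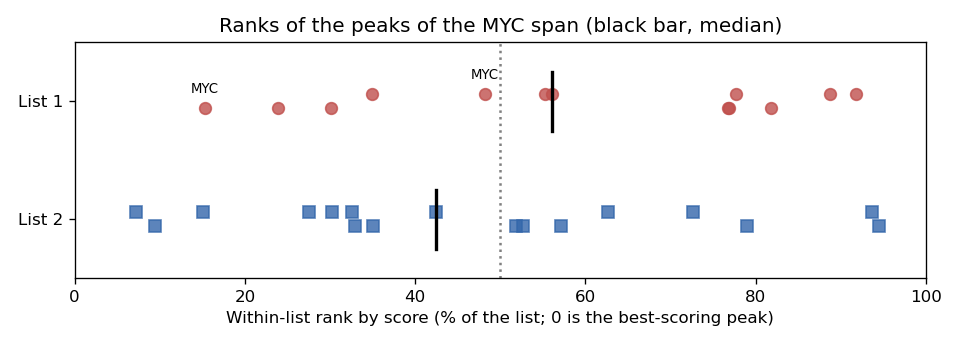
Within-list rank of each peak of the span, as a percentage of its list (0 is the best-scoring peak), with a black bar at the median and a dotted line at 50%. Ranks spread over most of both lists, with medians of 56.1% in list 1 and 42.4% in list 2, and the MYC peaks stand at 15.3% and 48.2%.

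No peak was replicated. Of the 13 list 1 peaks of the span, 0 shared at least 1 bp with a list 2 peak (95% exact Clopper-Pearson interval 0 to 24.7%), against 57 of 1251 in the rest of 8q (4.56%, 3.47 to 5.86%). At that share 0.592 overlapping peaks would fall among 13, so a lower or equal share could not be told apart at this number of peaks (Fisher's exact test, two-sided, p = 1). When a gap of up to 5 kb was allowed, 2 of 13 list 1 peaks had a list 2 partner (15.4%, against 19.7% in the rest of 8q), both of them in PVT1. With up to 10 kb, 4 of 13 did (30.8%, against 31.5%). The 95% exact intervals for the span were 1.92 to 45.4% at 5 kb and 9.09 to 61.4% at 10 kb. Proximity of the lists in the span could thus not be told apart from that in the rest of 8q, nor shown to be alike. Neither gap was a planned setting. These intervals cover counting error only.

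The density of peaks was compared with the rest of 8q, from the first gene after the longest gene-free interval of the chromosome to the last annotated gene, 98.5 Mb in all. List 1 had 8.67 peaks per Mb in the span and 12.9 per Mb in the rest of the arm, a ratio of 0.67 (95% exact interval 0.36 to 1.15). List 2 had 11.3 and 16.6 per Mb, a ratio of 0.68 (0.40 to 1.10). Neither ratio passed the test (exact binomial test, two-sided, adjusted p = 0.252 for each over 3 densities). Regions holding a peak of each list numbered 0 in the span and 56 in the rest of 8q (ratio 0, upper bound 4.40, exact binomial test, adjusted p = 1). The test counts peaks, which gather in clusters and are not replicates, so its p values are too small if anything.

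The list 1 ratio rested on the far end of the chromosome, where 4 of the 64 other windows of 1.5 Mb held 68 to 204 list 1 peaks each. Without those windows, a choice that followed from the values, the rest of 8q had 8.04 list 1 peaks per Mb and the ratio became 1.08 (0.57 to 1.85). Counted by windows, the span's 13 list 1 peaks stood beside a median of 12, with 34 windows lower and 25 higher. Its 17 list 2 peaks stood beside a median of 24, with 18 windows lower and 45 higher. The choice of boundaries also mattered: 1 Mb centred on MYC gave 1.01 in list 1 and 0.73 in list 2, whereas 2.5 Mb, with 500 kb more on each side, gave 0.59 (0.35 to 0.92, exact binomial test, adjusted p = 0.0234) and 0.53 (0.33 to 0.80, adjusted p = 0.00455).

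**Figure D4:**
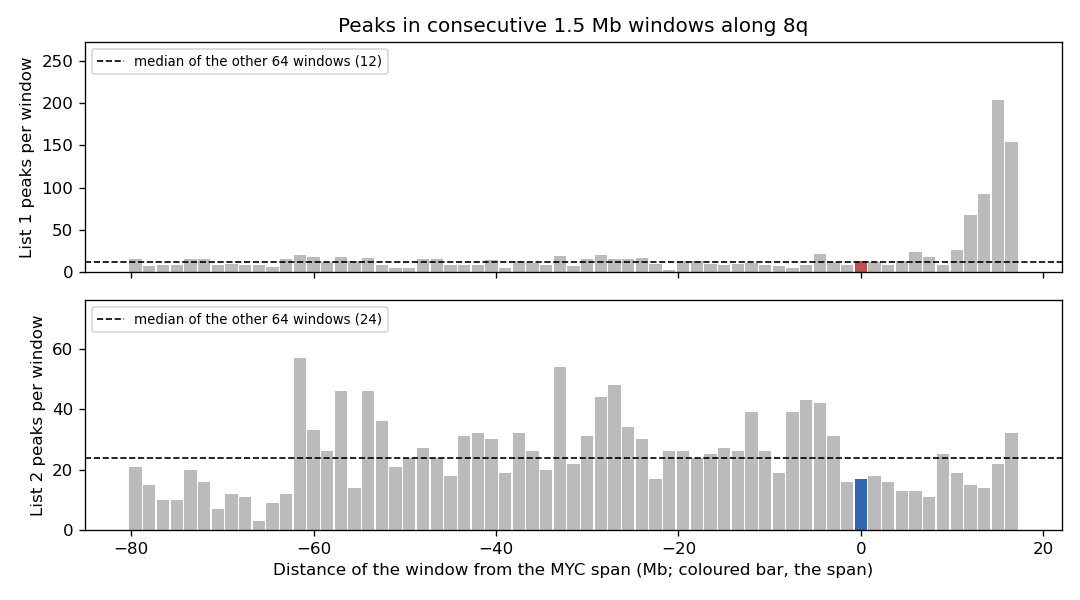
Number of list 1 peaks (upper panel) and list 2 peaks (lower panel) in consecutive 1.5 Mb windows along 8q, placed by their distance from the MYC span in Mb, with the span coloured and a dashed line at the median of the other 64 windows (12 and 24). The span is near the median in list 1, which climbs to 204 at the far end of the arm, and below the median in list 2.

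The list 2 value of the span was shared by its surroundings. The windows on either side held 16 and 18 list 2 peaks, while those 3 and 4 windows nearer the centromere held 42 and 43. The windows whose counts in both lists were most like those of the span, by the summed absolute log2 ratio of counts with 0.5 added, were the adjoining one with GSDMC, a gasdermin gene, and CYRIB (12 and 18 peaks, 0.19), a window from 71.5 to 73.0 Mb with EYA1, MSC, TRPA1 and KCNB2 (13 and 14, 0.27), and one from 104.5 to 106.0 Mb with LRP12 and ZFPM2 (10 and 17, 0.36). These 3 windows hold 2, 4 and 2 protein-coding genes and the span holds 2, but the next in likeness (0.37 each) hold 10 and 8. The long arm was denser than the short arm in both lists, with 12.8 against 8.04 list 1 peaks per Mb and 16.5 against 11.1 list 2 peaks per Mb. Without the 4 dense windows, the rest of 8q had 8.04 list 1 peaks per Mb. Those windows were chosen from their values and the short arm was not trimmed likewise. What the difference between the arms rested on was therefore not tested. The densities carry no correction for copy number, which was not analysed here.

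The genes that act with MYC were then followed elsewhere in the genome, over 6 lists with 94 genes found in the gene table. In list 1, the family members MYCN and MYCL had a peak within 1000 bp of an annotated end, and MYC did not. This depends on the window, since MYC entered with 3000 bp, and start sites inside a gene were not considered. MYCN, the paralogue active in neural progenitors, had a list 1 peak 28 bp from its 5′ end (score 103.44, rank 3558), and MYCL had one 495 bp from its 5′ end (score 119.8, rank 2140). MYC had its peaks 1908 bp or more from that end, and list 2 had no peak at an end of any of the 3 genes. The MYCN peak covered all 250 bases before the start site given by RefSeq and the MYCL peak covered 173 of them.

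These upstream sequences are shown for MYCN and MYCL, as counterparts of the annotated 5′ end of MYC, which had no list 1 peak within 1000 bp. They are also shown for CDK9, the only gene of the 6 lists (1 of 94) with a region of both replicates at an end. The share of all genes with such a region was not counted, so this 1 has no background. They are RefSeq sequences of GRCh38.p14, written 5′ to 3′ on the gene's strand, at chr2:15940300-15940549 (plus strand), chr1:39901918-39902167 (minus strand) and chr9:127785784-127786033 (plus strand). Capitals mark the GC box, GGGCGG on either strand.
MYCN: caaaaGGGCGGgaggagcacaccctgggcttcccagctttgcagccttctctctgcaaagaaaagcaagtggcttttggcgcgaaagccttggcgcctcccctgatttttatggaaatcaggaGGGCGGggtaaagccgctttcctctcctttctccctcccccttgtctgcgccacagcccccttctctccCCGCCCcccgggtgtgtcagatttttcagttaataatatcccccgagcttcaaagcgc
MYCL: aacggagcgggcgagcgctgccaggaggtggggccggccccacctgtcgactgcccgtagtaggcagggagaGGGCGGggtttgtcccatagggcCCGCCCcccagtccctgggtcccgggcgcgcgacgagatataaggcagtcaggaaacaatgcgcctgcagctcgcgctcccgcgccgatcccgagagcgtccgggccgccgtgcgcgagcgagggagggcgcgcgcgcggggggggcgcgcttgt
CDK9: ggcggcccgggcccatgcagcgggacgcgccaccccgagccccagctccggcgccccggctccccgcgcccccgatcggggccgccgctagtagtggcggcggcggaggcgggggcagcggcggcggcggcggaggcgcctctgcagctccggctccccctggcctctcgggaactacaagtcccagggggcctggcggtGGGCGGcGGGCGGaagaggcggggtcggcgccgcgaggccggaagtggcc
The GC box was present 3 times at MYCN and 2 times each at MYCL and CDK9, and 42.6% of all 35116 RefSeq windows of this length held it. The E-box CACGTG, a palindrome bound by MYC with MAX, was in none of the 3 windows and in 6.34% of all. The windows were 57.2%, 74.4% and 82% G or C at MYCN, MYCL and CDK9.

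In the MYC and MAX network, a list 1 peak lay at an end of 6 of 14 genes (42.9%, beside 24.3% of all protein-coding genes) and a list 2 peak at an end of 1 of 14 (7.14%, beside 6.28%). MGA, a large scaffold that competes for MAX, ranked best (score 170.84, rank 547, 425 bp from its 5′ end), followed by MAX itself, the obligate partner (score 126.81, rank 1717), MYCL and MYCN. The list 2 gene was MXI1, a MAX partner that represses E-box genes, with a score of 58.9 at its 3′ end. Among cofactors and turnover factors of MYC, list 1 marked an end of 7 of 19 genes (36.8%) and list 2 an end of 5 of 19 (26.3%). The list 2 count was 3 with a window of 500 bp and 1 in the better-scoring 50% of the list. CDK9, the kinase that releases paused RNA polymerase, scored 90.97 in list 1 and 52.4 in list 2 and had the midpoints 220 and 213 bp from its 5′ end. EP400, a chromatin remodeller, also had a peak of each list, but at opposite ends of the gene, with 97.78 in list 1 at the 3′ end and 55.32 in list 2 at the 5′ end. The other best-ranked ones were AURKA, a mitotic kinase that stabilises MYC proteins (94.55 in list 1), and SKP2, a ubiquitin ligase subunit (87.1 in list 1).

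Genes that MYC activates had peaks at an end in 4 of 24 cases in list 1 (16.7%, beside 24.3% of all protein-coding genes). In list 2 it was 1 of 24 (4.17%, beside 6.28%). With any overlap of the peak in place of its midpoint the counts were 8 and 2, and with 3000 bp they were 10 and 5. PHB1, a prohibitin gene, had the best-ranked of these (score 280.35, rank 104, 101 bp from its 5′ end), and HSPD1, a mitochondrial chaperonin gene, had 160.15 in list 1 at rank 717. SRM, which encodes spermidine synthase, scored 78.56, and ODC1, the rate-limiting enzyme of polyamine synthesis, scored 60.51 at its 3′ end, both in list 1. TFRC, the transferrin receptor gene, had the list 2 peak (52.28, at its 3′ end). Of 5 genes that MYC represses, 1 had a list 1 peak at an end (20%, beside 24.3%), and none had a list 2 peak. It was GADD45A, a DNA damage response gene (score 123.28).

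Regulators that act upstream of MYC in the colon had a list 1 peak at an end in 5 of 16 cases (31.2%, beside 24.3% of all protein-coding genes). A list 2 peak was at an end in 1 of 16 (6.25%, beside 6.28%). The list 2 gene was CTNNB1, which encodes β-catenin, with a score of 78.94 at rank 4692, 339 bp from its 5′ end. In list 1 the best-ranked were CDX2, an intestinal transcription factor (104.77, at its 3′ end), BCL9, a β-catenin coactivator (86.77), and HNF4A, a nuclear receptor of gut and liver (77.46). Of 16 other transcripts of 8q24, most of them non-coding, LINC00976 had the only peak at an end, in list 1 (52.51). LOC105375751, a lncRNA not among these that reaches into the span, had a list 1 peak 761 bp from its lower-coordinate end (score 191.67, rank 343). That end and its peak lie outside the span. Over all lists, list 1 marked an end of 24 of 94 genes (25.5%) and list 2 an end of 8 of 94 (8.51%). The shares of all protein-coding genes were 24.3% and 6.28%. The 94 include the non-coding transcripts of 8q24, a type with lower shares (10.3% and 4.14% of lncRNA genes). The pooled shares therefore have no background of like genes. The small lists were not tested against those shares, and counts at this size move with the window, from 24 to 42 in list 1 and from 8 to 17 in list 2 with 3000 bp.

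**Figure D5:**
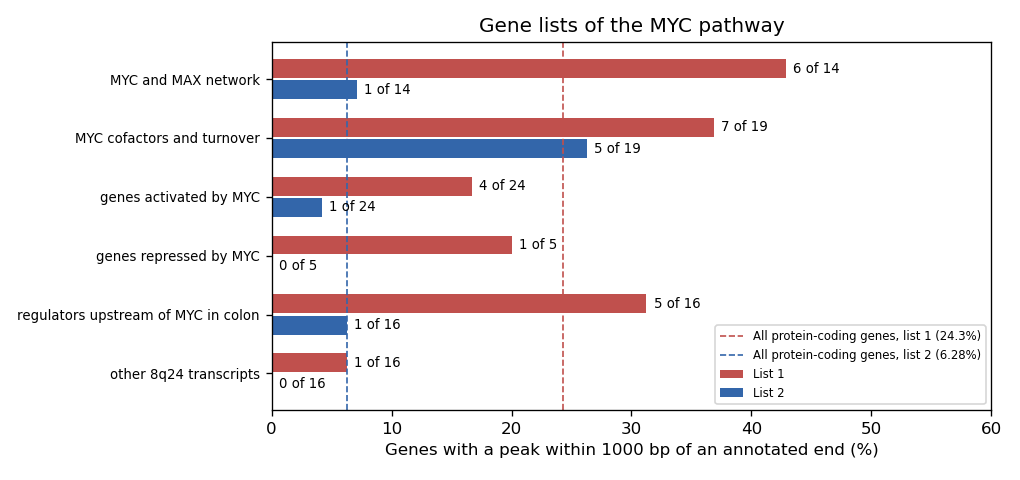
Share of genes with a peak within 1000 bp of an annotated end in each of 6 lists of genes linked to MYC, for list 1 and list 2, with counts beside the bars and dashed lines at the share of all protein-coding genes (24.3% and 6.28%). The MYC and MAX network reaches 42.9% in list 1 and the cofactors 26.3% in list 2, on 6 of 14 and 5 of 19 genes; the last list is mostly non-coding, for which the shares of lncRNA genes are 10.3% and 4.14%.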

How the data were processed

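The submitters' processing notes name cutadapt, Bowtie2 and the build GRCh38, without versions. Each deposited list gives peak positions and, in column 5, a score from the authors' peak caller, used here only to rank and describe peaks within a list. Peak names have the form MACS writes; its version, settings and filters are not stated. Peaks were called per replicate. The lists call the controls by another name than the labels, and were matched to them by number.

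Positions were made 1-based, and peaks were assigned by midpoint. Genes came from a RefSeq table of GRCh38.p14 (GCF_000001405.40) that gives gene ends without strand or exons, so exons, introns and UTRs were not told apart, and ends stand in for start sites. The 5′ ends of MYC relatives used the strand in RefSeq promoter windows; sequence of chromosome 8 was not used here. Shared regions were merged overlapping peaks of both lists. Densities were compared by exact binomial tests with Benjamini-Hochberg adjustment over 3, and overlap by Fisher's exact test, at 0.05, with 95% exact intervals. Members, lists (95 entries, of which TMEM75 was not matched) and tests were chosen with earlier results of these data known. Genes outside the members were named by a fixed rule, up to 4 of each list with the best-ranked peak at an end; MXI1 and TFRC were added after their values were seen. The code was tested on simulated peaks. Python 3.11.15, pandas 2.3.3 and SciPy 1.17.1 were used.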

Additional observations from a re-analysis of the deposited data

How the results depend on the processing

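No paired analysis was possible because the deposited lists hold peaks called from an MTA1 library and its control together, with no value per library for a replicate block. With 0 of 13 list 1 peaks of the span sharing at least 1 bp with list 2, the alternatives that required an overlap could only repeat this 0. They are therefore no check of it. The looser settings, gaps of up to 5 and 10 kb, gave 2 and 4 of 13. The density ratio in list 1 turned above 1 for 1 Mb centred on MYC (1.01) and without the 4 dense windows (1.08, chosen after the data were seen). It passed the test for the widened span (0.59) and against the telomeric 50% of 8q (0.47, exact binomial test, adjusted p = 0.0129). In both of these comparisons the rest included the 4 dense windows. In list 2 the density ratio passed for the widened span (0.53) and was 1.06 against the rest of the autosomes. At an end of a member, list 1 had a peak for 1 gene with 3000 bp, and list 2 for 0 genes with 500 bp and 2 with 3000 bp. Over either list, without 1 replicate they numbered 0 to 1 at an end (1 with both) and 2 to 3 within the gene (4 with both). Pathway genes with a peak at an end numbered 42 in list 1 and 17 in list 2 with 3000 bp, and in list 2 were 4 with 500 bp and 2 in the better-scoring 50%. The 13 and 17 peaks of the span leave wide intervals, from 0.36 to 1.15 in list 1 and from 0.40 to 1.10 in list 2.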
